A study of Homo sapiens with 4 samples.

Results

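The genes described here encode the 8 subunits of TRiC (also called CCT), the chaperonin of the eukaryotic cytosol: TCP1, CCT2, CCT3, CCT4, CCT5, CCT6A, CCT7 and CCT8. They were chosen by gene symbol, and all 8 were among the 19381 genes of the deposited count and TPM tables. RNA came from SK-LMS-1, an established human leiomyosarcoma line that the labels call uterine. In 2 libraries the cells had been exposed to 50 µM 2-D08 for 48 h, and in 2 libraries they were untreated. 2-D08 is a flavone known as an inhibitor of the step that transfers the small protein SUMO to its substrates. The labels name no vehicle for the untreated cells. Nothing in the labels says that the 2 libraries of a group were grown apart, so the p-values may reflect technical spread alone.

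TRiC is built from a pair of stacked rings, and each ring holds a single copy of every subunit. The subunits are paralogs, and the cycle of ATP use by the complex opens and closes the chamber in which a substrate folds. Actin and tubulin are its best known substrates. The cochaperone prefoldin delivers unfolded chains to the chamber, and phosducin-like proteins act on it as further cochaperones.

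Library totals ran from 14796702 to 31300635 counts, and in 2 libraries (treated replicate 2 and untreated replicate 1) 88.8% and 89% of non-zero gene counts were even, against 47.9% and 48.4% in the others. Replicates differed by more than sampling noise, with a chi-square per degree of freedom of 13.9 for the treated pair and 4.63 for the untreated pair. Of the smooth muscle markers, DES had 0 counts in all 4 libraries and MYOCD had 2 and 2 counts in treated cells against 0 and 0 in untreated cells, so these 2 genes were at or near 0. Others of the list were expressed: CALD1 averaged 484 CPM in treated cells and 661 CPM in untreated cells, TPM2 338 CPM in treated cells and 356 CPM in untreated cells, and MYLK 128 CPM in treated cells and 329.5 CPM in untreated cells. MYL9 and TAGLN were less abundant, at 33 and 26.6 CPM on average in untreated cells. The rest of the list was low: ACTA2 averaged 3.7 CPM in treated cells and 5.5 CPM in untreated cells. CNN1 averaged 2.07 CPM in treated cells and 4.23 CPM in untreated cells, and MYH11 0.721 and 0.599 CPM. Of 8 smooth muscle markers tested, 0 were higher and 5 lower in treated cells. For this and the lists below, 17.1% of all 12906 tested genes were higher and 16.9% lower (edgeR adjusted p under 0.05). The smooth muscle list summed to 939 and 1037 CPM in treated cells against 1400 and 1431 CPM in untreated cells. CPM are counts scaled to library size after TMM normalisation. Epithelial markers had 0 higher and 3 lower of 6 tested and summed to 277 and 230.4 CPM in treated cells against 343 and 304 CPM in untreated cells. Most of each sum was KRT18 (210.5 and 182.4 CPM in treated cells against 217.1 and 194.3 CPM in untreated cells). EPCAM averaged 0.59 CPM in treated cells and 0.65 CPM in untreated cells. Immune markers had 2 higher of 2 tested and summed to 98.5 and 99.7 CPM in treated cells against 61.9 and 66.9 CPM in untreated cells. Most of each sum was CD68 (93.4 and 92.6 CPM in treated cells against 60.4 and 65.3 CPM in untreated cells). The leukocyte marker PTPRC had at most 16 counts in any library. Endothelial markers had 1 higher and 0 lower of 3 tested. Their part in the TRiC results was not tested. In bulk RNA a change in the mix of cells and a change in RNA per cell cannot be told apart.

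The comparison of treated with untreated cells asks which of these transcripts changed with the compound. TCP1, CCT2, CCT6A and CCT8 were higher in treated cells, by 1.23-fold to 1.43-fold. CCT3, CCT4, CCT5 and CCT7 did not pass the test. So 4 of the 8 subunit genes rose and 0 fell, where 17.1% of all 12906 tested genes rose and 16.9% fell (edgeR quasi-likelihood test, Benjamini-Hochberg adjusted p under 0.05 over all tested genes). The median log2 fold change was 0.22 over the 8 subunits and -0.0033 over all tested genes. Both treated libraries lay above both untreated ones in CPM for 6 subunits (33.8% of all tested genes), below them for 1 (33.7% of all tested genes), and overlapped for 1. In TPM, 5 subunits lay above (27.5% of all tested genes), 1 below (33.8%) and 2 overlapped.

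The count of 4 was lower in the fits without an untreated library. Without untreated replicate 1 it was 0, with TCP1 nearest to the threshold (edgeR adjusted p = 0.0513), and without untreated replicate 2 it was 1, TCP1 (edgeR adjusted p = 0.0129). Each fit without a library takes the lone library of a group to vary like the other group. Without an untreated library the spread came from the treated pair (chi-square per degree of freedom 13.9, against 4.63 for the untreated pair). The log2 fold change of TCP1 was 0.47 without untreated replicate 1 and 0.56 without untreated replicate 2, against 0.51 with all libraries. That of CCT8 was 0.23 and 0.38, against 0.30. What lowered the count was not tested. With the counts of the 2 libraries of mostly even values halved, all 4 calls held. With limma on log2(TPM + 1) the count was 2, TCP1 and CCT2.

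**Figure D1:**
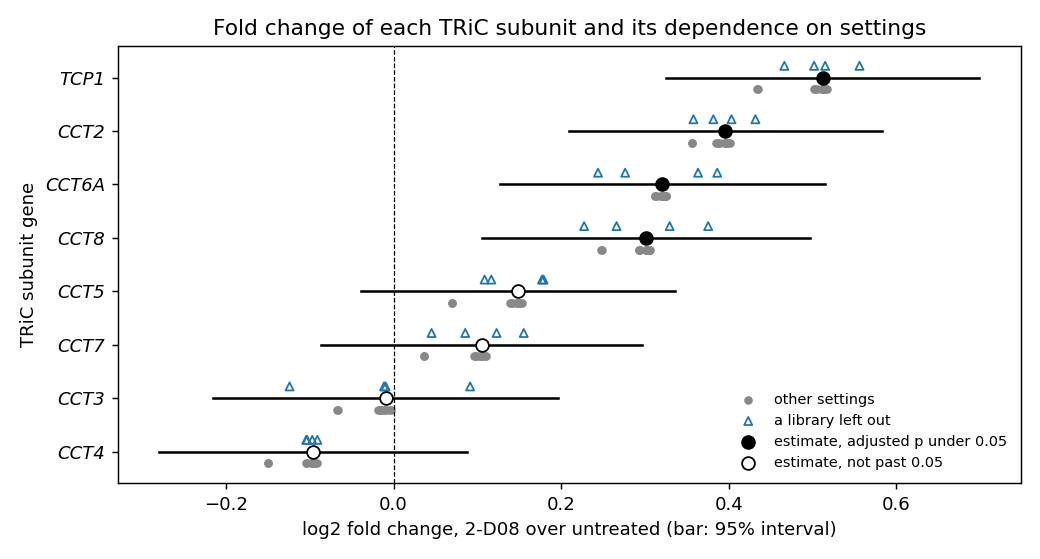
Log2 fold change of each TRiC subunit gene, 2-D08 over untreated (x axis), with the 95% interval as a bar. Filled circles passed an adjusted p of 0.05, open circles did not, triangles are fits without a library and grey points are other settings. TCP1 lies highest at 0.51 and CCT4 lowest at -0.10.

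TCP1, the alpha subunit, for which the complex was first named, showed the largest change among the 8. The gene lies on chromosome 6 (159778498 to 159789749, minus strand, GRCh38). Its level was 730.4 and 736 CPM in treated cells, against 498 and 531 CPM in untreated cells. Both treated libraries were above both untreated ones, and the gap was wider than the spread of either pair. The log2 fold change was 0.51 ± 0.09 (SE, n = 2 per group; edgeR adjusted p = 0.000562), a 1.43-fold rise with a 95% interval of 1.25 to 1.62. At its 3′ end TCP1 overlaps ACAT2, a cholesterol-pathway acetyltransferase gene on the opposite strand, over 397 of the 2499 bases (15.9%) of its principal transcript. How the authors treated strand is not given in the sources used here, so reads from the shared stretch cannot be told apart. ACAT2 itself averaged 52.5 CPM in treated cells and 61.4 CPM in untreated cells (edgeR adjusted p = 0.115).

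CCT2, the beta subunit gene (chromosome 12, 69585334 to 69601570, plus strand), stood at 461 and 453 CPM in treated cells, against 338 and 357 CPM in untreated cells. The groups did not overlap. Its log2 fold change was 0.40 ± 0.09 (SE, n = 2 per group; edgeR adjusted p = 0.00332). None of the 1967 words of 75 bases in its principal transcript occurs in an annotated transcript of another gene, though the read length is not given in the labels. CCT2 did not pass once untreated replicate 1 (edgeR adjusted p = 0.162) or untreated replicate 2 (0.0646) was left out.

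CCT6A, the zeta subunit gene that is expressed broadly, had 845 and 932 CPM in treated cells, against 689 and 734 CPM in untreated cells. It lies on chromosome 7 (56051630 to 56063989, plus strand). These were the most abundant counts of the family, and again the groups did not overlap, though the treated pair was spread by more than for TCP1 or CCT2. The log2 fold change was 0.32 ± 0.09 (SE, n = 2 per group; edgeR adjusted p = 0.0143). Introns of CCT6A hold the small nucleolar RNA genes SNORA15 and SNORA22B, which share 0 exonic bases with its principal transcript. Of the 75-base words of that transcript, 1.4% also occur in CCT6 pseudogenes. CCT6A did not pass with untreated replicate 1 left out (edgeR adjusted p = 0.307), with untreated replicate 2 left out (0.128), or with limma on log2(TPM + 1) or log2(TPM + 0.1) (0.069 and 0.0675).

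CCT8, the theta subunit gene (chromosome 21, 29055805 to 29073797, minus strand), had 457 and 477 CPM in treated cells, against 359 and 399 CPM in untreated cells. The gap between the groups was wider than the distance between the libraries of either group. Its log2 fold change was 0.30 ± 0.09 (SE, n = 2 per group; edgeR adjusted p = 0.0204). Like CCT6A, CCT8 did not pass with untreated replicate 1 left out (edgeR adjusted p = 0.428), with untreated replicate 2 left out (0.116), or with limma on the 2 log2 TPM scales (0.109 and 0.107).

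The other subunits had smaller differences. CCT5, the epsilon subunit gene (chromosome 5, 10249921 to 10266412), had 543 and 569 CPM in treated cells, against 491 and 513 CPM in untreated cells. Its log2 fold change was 0.15, with a 95% interval of the fold from 0.97 to 1.26 (edgeR adjusted p = 0.207). Of the 15 alternatives it passed in the fit without treated replicate 1 alone (edgeR adjusted p = 0.0494). An antisense gene, AC012640.4, covers 47.8% of the principal transcript of CCT5 and was not analysed here, so reads of this gene and CCT5 cannot be told apart there.

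CCT7, the eta subunit gene (chromosome 2, 73233420 to 73253021), had 334 and 309 CPM in treated cells, against 302 and 295 CPM in untreated cells, an interval of the fold from 0.94 to 1.23 (edgeR adjusted p = 0.387). Its groups were separate in CPM but overlapped in TPM. CCT3, the gamma subunit gene (chromosome 1, 156308968 to 156367873), had 288 and 248 CPM in treated cells, against 269 and 269 CPM in untreated cells. The treated libraries of CCT3 fell on either side of the untreated ones, and the interval of the fold ran from 0.86 to 1.15 (edgeR adjusted p = 0.947). Its fitted sign depended on a library: the log2 fold change was -0.01 with all libraries and 0.09 without treated replicate 2.

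CCT4, the delta subunit gene, lies on chromosome 2 (61868089 to 61888804, minus strand). It alone had both treated libraries below both untreated ones, at 412 and 410 CPM in treated cells against 437 and 442 CPM in untreated cells. The log2 fold change was -0.10 ± 0.09 (SE, n = 2 per group, edgeR adjusted p = 0.412). The interval of the fold ran from 0.82 to 1.06 and so included no change. The sign was the same in all 15 alternatives, and in 0 of them did CCT4 pass. The 95% intervals of TCP1 (0.33 to 0.70 on the log2 scale) and CCT4 (-0.28 to 0.09) did not overlap. Per length, the ratio of TCP1 to CCT4 TPM was 2.32 and 2.39 in treated cells, against 1.55 and 1.59 in untreated cells. TCP1 and CCT4 had the highest and lowest fold changes of the subunits in these same data. The extremes of a set tend to lie apart, so the intervals and the ratio do not test a difference between subunits. On the opposite strand, AC107081.2 covers 10.9% and COMMD1 3.21% of the principal transcript of CCT4, so reads there cannot be told apart. COMMD1 averaged 13.4 CPM in treated cells and 14.9 CPM in untreated cells (edgeR adjusted p = 0.522). AC107081.2 was not analysed here.

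The stretch upstream of the gene is printed for TCP1 and CCT2, which had the largest fold changes, and for CCT4, which had the lowest. The sequences come from the RefSeq promoter table (GRCh38.p14), which held 7 of the 8 genes (not CCT6A). Each starts 250 bases before the RefSeq start and ends where the first annotated exon of GENCODE release 29 begins. They are written 5′ to 3′ on the strand of the gene. Capitals mark a match to any of 5 motifs searched on both strands. These were GAANNTTC and the related TTCNNGAA, both units of the heat shock element, the CCAAT box, the GC box motif GGGCGG and the E-box motif CACGTG.
TCP1, chr6:159789750-159789852, minus strand: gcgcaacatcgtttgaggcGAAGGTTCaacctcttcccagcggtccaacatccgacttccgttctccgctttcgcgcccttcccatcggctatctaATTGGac
CCT2, chr12:69585209-69585333, plus strand: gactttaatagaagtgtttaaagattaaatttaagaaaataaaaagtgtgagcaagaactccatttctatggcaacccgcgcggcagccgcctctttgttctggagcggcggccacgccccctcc
CCT4, chr2:61888805-61888906, minus strand: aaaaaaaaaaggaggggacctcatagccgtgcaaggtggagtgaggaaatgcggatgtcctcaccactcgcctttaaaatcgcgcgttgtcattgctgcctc
In the TCP1 stretch the capitals are GAANNTTC, whose first base lies at position -231, and the CCAAT box read on the other strand, whose first printed base lies at -154, where -1 is the base before the start. The CCT2 and CCT4 stretches hold no match. Over the full windows of 250 bases, GAANNTTC occurred for TCP1 and for a second start of CCT2, against 5.78% of all 35116 windows in the table. CCAAT and GGGCGG each occurred for TCP1, CCT2, CCT3 and CCT8, against 32% and 42.6% of all windows. TTCNNGAA (6.62% of all windows) and CACGTG (6.34%) occurred for 0 members. CCT4, CCT5 and CCT7 held 0 of the 5 motifs. The matched motifs did not overlap each other, and a match is a description of letters, not a binding site.

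Levels of different subunits were compared in the deposited TPM, a unit that corrects for the length of a transcript and for depth. In treated cells the order was CCT6A (608 and 642 TPM), TCP1 (585 and 565), CCT5 (511 and 521), CCT2 (395 and 389), CCT8 (366 and 360), CCT7 (309.8 and 291), CCT4 (252 and 236) and CCT3 (216 and 180.5 TPM). In TPM, every neighbour in that order was separated, in that both libraries of the higher gene lay above both of the lower gene. In untreated cells the order of means was CCT6A (476 and 522 TPM), CCT5 (493 and 491), TCP1 (424 and 427), CCT2 (303 and 309), CCT8 (296 and 316), CCT7 (299 and 287), CCT4 (274 and 268) and CCT3 (209 and 205 TPM). There CCT6A could not be separated from CCT5, nor could CCT8 be separated from CCT2 or from CCT7, since the libraries overlapped, while both libraries of CCT2 lay above both of CCT7. In TPM, TCP1 stood above CCT5 in both treated libraries and below it in both untreated libraries. The order of TCP1 and CCT5 depended on the length used. In counts per principal transcript length, over all libraries, TCP1 ranked 2 and CCT5 ranked 7. The switch between groups therefore holds for the deposited TPM only.

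**Figure D2:**
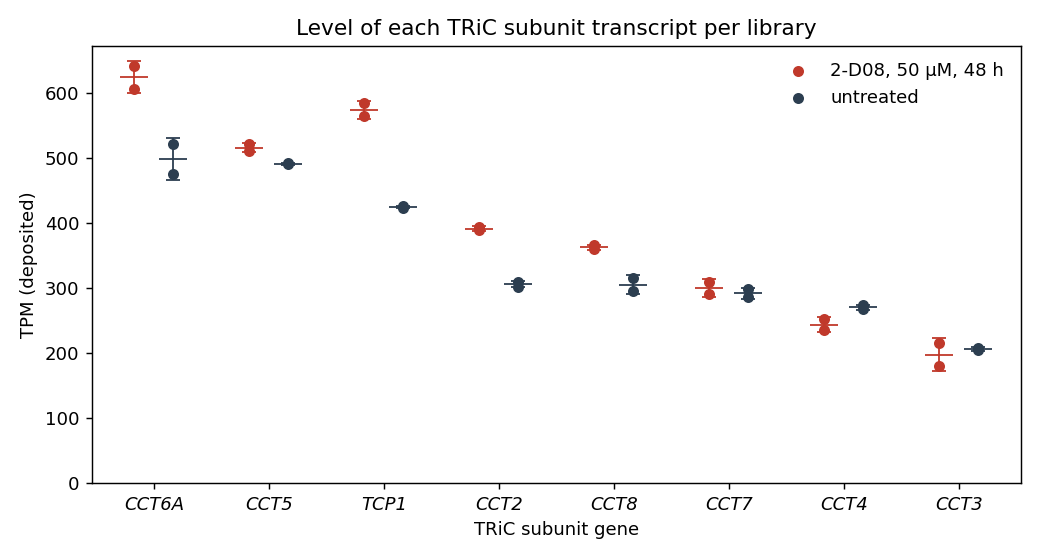
Deposited TPM of each TRiC subunit gene (y axis) in each library. Points are libraries, horizontal marks the mean and bars the SD of 2 libraries per group, with 2-D08 in red and untreated cells in dark blue. TCP1 averages 575 TPM in treated and 425 TPM in untreated cells, while the treated libraries of CCT3 spread from 180.5 to 216 TPM around the untreated ones.

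Over all 4 libraries the most abundant subunit, CCT6A, exceeded the least abundant, CCT3, by 2.78-fold in mean TPM. The place of CCT5 depended on the length used. It took 16.8% of the summed TPM of the 8 subunits and ranked 2, but 9.31% and rank 7 when counts were divided by the length of its GENCODE principal transcript, which is 3675 bases. The deposited TPM of CCT5 corresponds to a length 0.515 times that transcript's, relative to the median subunit. CCT6A kept rank 1 and CCT3 rank 8 on both measures. CCT8 moved from rank 5 in TPM to rank 3 in counts per length, above CCT2, which kept rank 4. CCT4 moved from rank 7 to rank 5, above CCT7, which kept rank 6. The order within these pairs therefore also depended on the length used.

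Summed over the 8 subunits, TRiC transcripts reached 3242 and 3186 TPM in treated cells, against 2773 and 2825 TPM in untreated cells. That is a mean of 3214 ± 39.6 TPM in treated cells and 2799 ± 36.8 TPM in untreated cells (SD, n = 2 each), a ratio of 1.15. The groups did not overlap, and an exact two-sided permutation test gave p = 0.333, the smallest that 2 libraries against 2 allow. The sum made up 0.437% and 0.444% of the TPM of all listed genes in treated cells, against 0.364% and 0.379% in untreated cells.

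The make-up of that sum also differed between groups. TCP1 took 18% and 17.7% of it in treated cells, against 15.3% and 15.1% in untreated cells, and CCT4 took 7.78% and 7.42% in treated cells, against 9.87% and 9.49% in untreated cells. Shares of TCP1, CCT2, CCT6A and CCT8 were above, and those of CCT3, CCT4, CCT5 and CCT7 below, the untreated range in both treated libraries. Some margins were narrow. CCT8 took 11.29% and 11.31% in treated cells against 10.67% and 11.19% in untreated cells, and CCT6A 18.74% and 20.16% against 17.18% and 18.48%. These are shares within the 8 subunits, so no share over all genes stands beside them. Shares add to a fixed total, so a higher share of some subunits lowers those of the rest.

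Among the 6 subunits of prefoldin, which feeds TRiC, 1 rose and 0 fell, with a median log2 fold change of 0.10, where 17.1% of all tested genes rose and 16.9% fell. The share of prefoldin genes that rose was thus near that of all tested genes. The riser was VBP1, the prefoldin subunit that also binds the VHL protein, at 196.5 and 197.1 CPM in treated cells against 152 and 167 CPM in untreated cells (0.30 ± 0.09 SE, edgeR adjusted p = 0.0206). VBP1 did not pass with untreated replicate 1 left out (edgeR adjusted p = 0.405) or untreated replicate 2 left out (0.124). Of 3 phosducin-like genes, PDCL2 had 0 counts in every library, and of the 2 tested 0 rose and 0 fell.

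In the prefoldin-like and R2TP complex, which assembles RNA polymerase and other large complexes, 3 rose and 0 fell of 10 tested. The median log2 fold change was 0.12, and of all tested genes 17.1% rose and 16.9% fell. PDRG1 had 42.1 and 34.3 CPM in treated cells against 24.7 and 24.5 CPM in untreated cells (0.63 ± 0.13 SE, edgeR adjusted p = 0.00195), and it kept its call in each fit without a library but lost it with limma on log2(TPM + 1) (adjusted p = 0.0685) and log2(TPM + 0.1) (0.0664). RPAP3 rose by 0.31 on the log2 scale (edgeR adjusted p = 0.0397) but not without untreated replicate 1 (0.359), untreated replicate 2 (0.109) or treated replicate 2 (0.237). ASDURF rose by 0.71 (edgeR adjusted p = 0.0446), a value carried by treated replicate 2, since its libraries held 8.31 and 16.5 CPM in treated cells against 7.15 and 8.54 CPM in untreated cells. Without treated replicate 2 its log2 fold change was 0.09 (adjusted p = 0.778), and without untreated replicate 1 the adjusted p was 0.17.

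**Figure D3:**
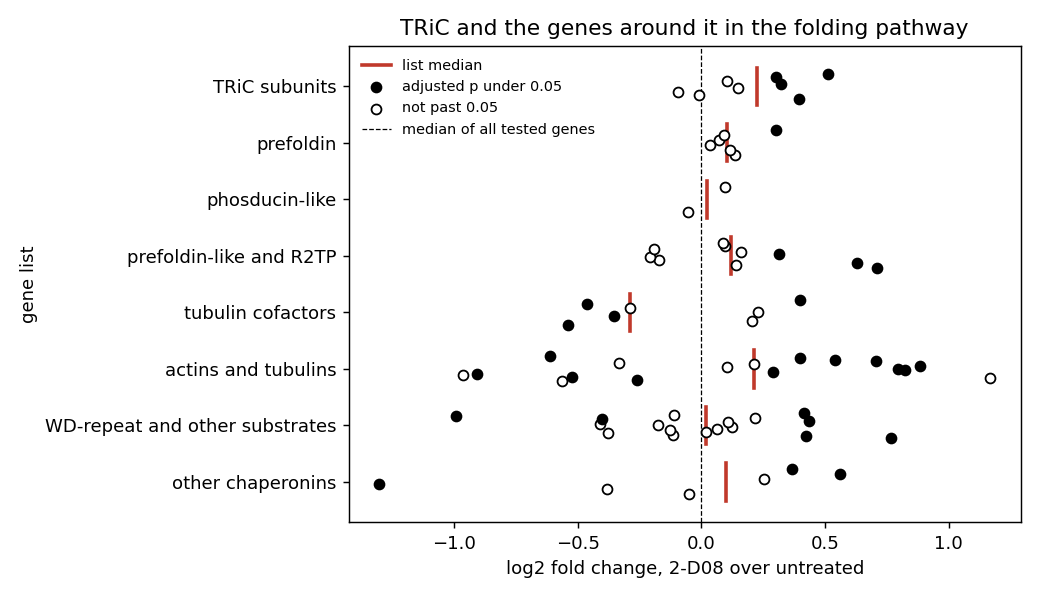
Log2 fold change, 2-D08 over untreated (x axis), of every tested gene in TRiC and in 7 lists of the folding pathway (rows). Filled points passed an adjusted p of 0.05, red bars are list medians and the dashed line is the median of all tested genes, -0.0033. The TRiC median is 0.22 and that of the tubulin cofactors -0.29.

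Tubulin cofactors, which join folded alpha and beta tubulin into dimers after release from TRiC, had 1 higher and 3 lower of 7. Against this, 17.1% of all tested genes were higher and 16.9% lower. The median log2 fold change of the cofactors was -0.29. ARL2, a small GTPase that binds cofactor D, fell by 0.54 on the log2 scale (edgeR adjusted p = 0.0107), TBCE by 0.46 (0.0184) and TBCB by 0.35 (0.0199), while TBCEL, a TBCE-like gene, rose by 0.40 (0.0116). With untreated replicate 1 left out, ARL2 (edgeR adjusted p = 0.0687), TBCE (0.349), TBCB (0.208) and TBCEL (0.205) did not pass, and with untreated replicate 2 left out TBCB (0.141) and TBCEL (0.0838) did not.

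Among actin and tubulin genes, the main substrates, 7 rose and 4 fell of 17 tested, with a median of 0.21. Over all tested genes 17.1% rose and 16.9% fell. TUBA1C had 639 and 709 CPM in treated cells against 359 and 403 CPM in untreated cells (0.82 ± 0.10 SE, edgeR adjusted p = 2.98e-05). TUBB4B (0.71) and TUBB2A (0.89 on the log2 scale) rose as well, whereas the alpha tubulin gene TUBA1A had 103 and 101 CPM in treated cells against 192 and 189 CPM in untreated cells (-0.91 ± 0.09 SE, edgeR adjusted p = 6.12e-06). Named after their values were seen, the cytoplasmic actin genes ACTB (-0.26, edgeR adjusted p = 0.0253) and ACTG1 (-0.52, 0.00152) fell. ACTB did not pass with untreated replicate 1 (edgeR adjusted p = 0.365) or untreated replicate 2 (0.223) left out. Tubulin and actin genes have close paralogs and many processed copies, so values of single genes are uncertain where reads could be split.

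WD-repeat proteins and other known substrates had 4 higher and 2 lower of 17, with a median of 0.02. Both shares were near those of all tested genes (17.1% higher and 16.9% lower). STAT3 fell by 0.40 on the log2 scale (edgeR adjusted p = 0.00505, and 0.138 without untreated replicate 1). PPP2R2A, a phosphatase regulatory subunit, rose by 0.44 (0.00263, and 0.0801 without untreated replicate 2), and CCNE1, which encodes cyclin E, rose by 0.77 (0.00469, and 0.112 without untreated replicate 1).

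Among 6 tested genes of other chaperonins, 2 rose and 1 fell, with a median of 0.10, against 17.1% higher and 16.9% lower over all tested genes. HSPE1, the co-chaperonin of mitochondria, had 182 and 206 CPM in treated cells against 122 and 142 CPM in untreated cells (0.56 ± 0.10 SE, edgeR adjusted p = 0.00105, and 0.0641 without untreated replicate 1). MKKS, a chaperonin-like gene of BBSome assembly, rose by 0.37 (edgeR adjusted p = 0.0135, and 0.212 or 0.114 with untreated replicate 1 or 2 left out). CCT6B, a paralog of CCT6A known from testis, had 1.99 and 0.843 CPM in treated cells against 3.37 and 3.09 CPM in untreated cells. Its raw counts were 30 and 26 in treated cells and 100 and 51 in untreated cells, in libraries of unequal depth. Its log2 fold change of -1.30 (edgeR adjusted p = 0.0169) did not pass with untreated replicate 1 left out (0.0642) or with treated replicate 2 left out (-0.71, adjusted p = 0.148). CCT8L2 had 0 counts in every library. With limma on both log2 TPM scales, VBP1, RPAP3, ASDURF, ARL2, TBCE, TBCB, TBCEL, ACTB, STAT3, PPP2R2A, MKKS and CCT6B, like PDRG1, did not pass (adjusted p of 0.0664 to 0.372).

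The genes whose profile over the 4 libraries lay nearest to the mean profile of the 8 subunits were SLC30A5, PSMC2, KLHDC10, ZNF266 and GLRX5, out of 7705 genes that averaged 20 CPM or more. Their Euclidean distances on the log2 CPM scale ran from 0.0136 to 0.0223. They had log2 fold changes of 0.19 to 0.22, and 0 of the 5 passed the test (edgeR adjusted p of 0.0763 to 0.136). The choice by profile sets their fold changes near the mean of the subunits, so these values are no separate finding.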

How the data were processed

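The submitters' processing notes name the build GRCh38 and the tools STAR 2.7.8a, cutadapt 3.4 and DESeq2. The counter, strand setting and annotation release are not stated there or in the labels. The authors deposited raw counts per gene, TPM, and values on a log2-like scale named as normalised counts, which served only an added alternative. Counts of 19381 genes were filtered with filterByExpr (minimum count 10), leaving 12906, scaled by TMM and tested with edgeR 4.0.16 in R 4.3.3 (robust quasi-likelihood, two-sided, Benjamini-Hochberg over all tested genes). Standard errors and 95% intervals were derived from the F statistic. The fit was tested on simulated data. Each count was taken as a separate read, so intervals cover no repeated counting of reads.

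Members and lists were chosen with earlier results of these data known. The text names all 8 members, up to 4 called genes with the smallest p per list (mean of at least 1 CPM), and the 5 nearest profiles; a gene that this rule names is not reported here. Gene models came from GENCODE release 29 (GRCh38). The principal transcript is the longest APPRIS principal one. Levels were compared in TPM and, as an alternative, as counts per principal transcript length. Alternatives used DESeq2 1.42.0 and limma 3.58.1, RLE factors, library size only, other filters, halved even counts, a replicate block and leaving out each library. The permutation test used scipy 1.17.1. A planned comparison of the protein sequences was not analysed here.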

Additional observations from a re-analysis of the deposited data

How the results depend on the processing

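Of the 8 subunits, CCT4 and CCT7 kept direction and side of the threshold in all 15 alternatives. The number of subunits that rose was 4 with halved even counts, DESeq2, limma-voom, RLE factors, no scaling factor, no filter, a filter at 5 CPM, the replicate block and, in a fit chosen after seeing the data, the deposited transformed values. It was 2 with limma on log2(TPM + 1) and 2 on log2(TPM + 0.1), where CCT6A (0.32 on both) and CCT8 (0.25 on both) lost their calls; the cause was not tested. It ran from 0 to 5 over the fits without a library, fewest without untreated replicate 1. Over those fits the log2 fold change ran from 0.47 to 0.56 for TCP1, 0.36 to 0.43 for CCT2, 0.24 to 0.39 for CCT6A, 0.23 to 0.38 for CCT8, 0.11 to 0.18 for CCT5 and -0.12 to 0.09 for CCT3, which changed sign (0.0913) without treated replicate 2. All changed genes numbered 4376, and 1598 and 1608 on the TPM scales and 1866 to 6077 without a library; of the pathway lists 18 genes rose and 10 fell, and 6 and 3 on each TPM scale, 8 to 23 and 3 to 20 without a library. Of those 28 pathway calls 7 held in all alternatives, 19 were lost without some library, 19 on a TPM scale, and 0 turned sign. The highest-to-lowest subunit ratio of 2.78 was 3.56 in treated replicate 2 and 2.33 with counts per length. Nothing in the labels pairs libraries by number. Deviations of libraries with the same number correlated at 0.157, and with the replicate block 6239 genes changed and 18 pathway genes fell. The 95% interval of the fold was 0.86 to 1.15 for CCT3 and 0.82 to 1.06 for CCT4. It was 0.97 to 1.26 for CCT5 and 0.94 to 1.23 for CCT7. These 4 subunits did not pass, and changes within each gene's own interval remain possible.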
